A study of Mus musculus with 23 samples.

Results

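The 7 genes described here encode surface ligands and receptors that take part in T cell costimulation or in inhibition. They are Cd80 and Cd86, Cd40, Cd274 (PD-L1), Pdcd1lg2 (PD-L2), Icosl and Havcr2 (TIM-3). Open chromatin at these genes was taken as every ATAC-seq peak whose summit lay inside a gene's body or within 20 kb of it on GRCm38, each peak going to the nearest member. The deposited lists held 1090 such peaks out of 1054137. Peaks of the libraries were merged into windows of 501 bp, and the 53 windows that held a peak in 3 or more of the 23 libraries are called regions, out of 49124 regions in the genome; another 19 windows at these genes had a peak in fewer libraries. Regions are numbered along the chromosome within each gene, so that Cd80_4 is the fourth region at Cd80.

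ATAC-seq marks DNA that a transposase can reach in the nucleus, and it was applied to microglia, the resident macrophages of the brain. The cells came from the striatum of male mice 8 to 10 weeks old and were sorted as live cells positive for CD11b and P2RY12 with low CD45. CON mice were control offspring and MIA mice were offspring exposed to maternal immune activation before birth, and the sources used here name neither its agent nor the strain and genotype of the mice. Both kinds of offspring received either saline (SAL) or the bacterial endotoxin lipopolysaccharide (LPS, 4500 endotoxin units per gram of body weight) into the peritoneum 18 hours before the cells were taken, which gave 5 CON_SAL, 7 CON_LPS, 6 MIA_SAL and 5 MIA_LPS libraries. The gate requires P2RY12 and low CD45, so cells that lost P2RY12 or gained CD45 after LPS would lie outside it. Whether every library stands for a separate animal is not stated in the labels. The p-values therefore refer to the spread among libraries, part of which may be technical.

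A T cell needs a costimulatory signal beside its antigen receptor. CD80 and CD86 on the presenting cell give it through CD28 and withhold it through CTLA-4, and CD40 on the presenting cell receives CD40 ligand from the T cell and in turn raises CD80 and CD86. PD-L1 and PD-L2 bind PD-1 and restrain the T cell, ICOS ligand binds ICOS on activated T cells, and TIM-3 is an inhibitory receptor that microglia and other myeloid cells also carry. Resting microglia carry little CD80, CD86 and CD40, which are known to rise in inflammation, and they do carry TIM-3. Open chromatin at a gene is not a measure of its RNA or protein, and a region's place near a gene does not show that it controls that gene.

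The RefSeq starts of the genes showed the clearest contrast, and the sequences there are given first. RefSeq promoter windows (250 bases before to 50 bases after the gene start, GRCm38.p6) were on hand for 5 of the 7 genes, not for Cd86 and Cd40. The window of Cd80 was overlapped by a region that no saline library (0 of 11) and every LPS library (12 of 12) had open, whereas the windows of Cd274, Icosl and Havcr2 were each overlapped by a region with a peak in all 23. The Cd80 gene model reaches farther upstream than this RefSeq start, and Cd80_3 beside its outer end had a peak in all 23 libraries. No region overlapped the Pdcd1lg2 window. The 4 overlapped windows are printed 5′ to 3′ on the + strand, with capitals marking matches to the motifs named below. They lie at chr16:38458683-38458982 (Cd80), chr19:29367188-29367487 (Cd274), chr10:78069118-78069417 (Icosl) and chr11:46454681-46454980 (Havcr2).
Cd80: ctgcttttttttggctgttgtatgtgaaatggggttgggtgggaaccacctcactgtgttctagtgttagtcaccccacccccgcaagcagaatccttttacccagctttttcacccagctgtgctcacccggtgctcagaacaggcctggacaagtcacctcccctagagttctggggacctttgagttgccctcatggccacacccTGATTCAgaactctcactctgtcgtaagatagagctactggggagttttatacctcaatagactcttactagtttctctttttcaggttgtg
Cd274: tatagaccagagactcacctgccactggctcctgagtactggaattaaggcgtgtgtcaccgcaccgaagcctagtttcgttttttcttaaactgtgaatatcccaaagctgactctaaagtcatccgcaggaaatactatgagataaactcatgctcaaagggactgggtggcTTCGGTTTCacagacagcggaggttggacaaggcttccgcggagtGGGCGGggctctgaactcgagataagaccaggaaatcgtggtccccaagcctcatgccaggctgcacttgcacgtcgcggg
Icosl: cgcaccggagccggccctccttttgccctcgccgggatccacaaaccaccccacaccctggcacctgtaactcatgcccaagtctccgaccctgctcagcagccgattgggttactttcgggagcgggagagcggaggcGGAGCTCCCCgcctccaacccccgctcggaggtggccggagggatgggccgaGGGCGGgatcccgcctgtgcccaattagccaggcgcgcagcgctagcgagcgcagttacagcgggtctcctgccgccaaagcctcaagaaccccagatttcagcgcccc
Havcr2: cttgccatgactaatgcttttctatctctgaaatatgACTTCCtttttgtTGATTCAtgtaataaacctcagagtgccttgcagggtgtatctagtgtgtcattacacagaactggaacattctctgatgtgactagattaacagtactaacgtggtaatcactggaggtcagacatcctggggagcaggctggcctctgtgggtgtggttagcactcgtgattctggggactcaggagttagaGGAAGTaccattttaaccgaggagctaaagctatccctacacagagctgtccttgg

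The windows differed in base composition. The Icosl window had a GC content of 68.0% and 26 CpG dinucleotides and that of Cd274 52.7% and 15, against medians of 52.7% and 7 over 32851 mouse promoters. The Cd80 and Havcr2 windows had 49.7% and 45.3% GC and 3 CpG each. Motifs were searched on both strands. TGANTCA, the core bound by AP-1, was found in the Cd80 window at bases -42 to -36 counted from the gene start and in the Havcr2 window at -200 to -194, and 7.81% of all promoters of this length held it. The ETS and PU.1 core GGAAGT occurred 2 times in the Havcr2 window (23.8% of all promoters), the interferon-response pattern GAAANNGAA in the Cd274 window at -76 to -68 (8.56%), and the SP1 pattern GGGCGG in those of Cd274 and Icosl (35.7%). The NF-kB motif matched in the windows of Icosl and Pdcd1lg2 (11.2% of all), and the STAT pattern TTCNNNGAA in none of the 5 (8.30% of all). The SP1 and NF-kB patterns did not overlap in the Icosl window. A match describes letters only.

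Libraries were compared after every list had been shortened to its best 33949 peaks by the authors' −log10 p, the length of the shortest list, since the deposited lists ran from 33949 to 68312 peaks and longer lists hold weaker peaks. Read counts were not analysed here, so the depth of each library is unknown. In the shortened lists the 7 genes together had 27 to 33 peaks per library after saline (median 30, 11 libraries) and 36 to 47 after LPS (median 40, 12 libraries). The CON_SAL libraries averaged 30.0 ± 2.12 peaks (SD, n = 5) and the CON_LPS libraries 38.6 ± 1.90 (n = 7). The MIA_SAL libraries averaged 29.5 ± 0.548 (n = 6) and the MIA_LPS libraries 42 ± 3.61 (n = 5). Every LPS library held more peaks at these genes than every saline library; this sum over the chosen genes is a description and was not tested. In the lists as deposited the ranges overlapped, at 29 to 62 after saline and 37 to 82 after LPS.

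**Figure D1:**
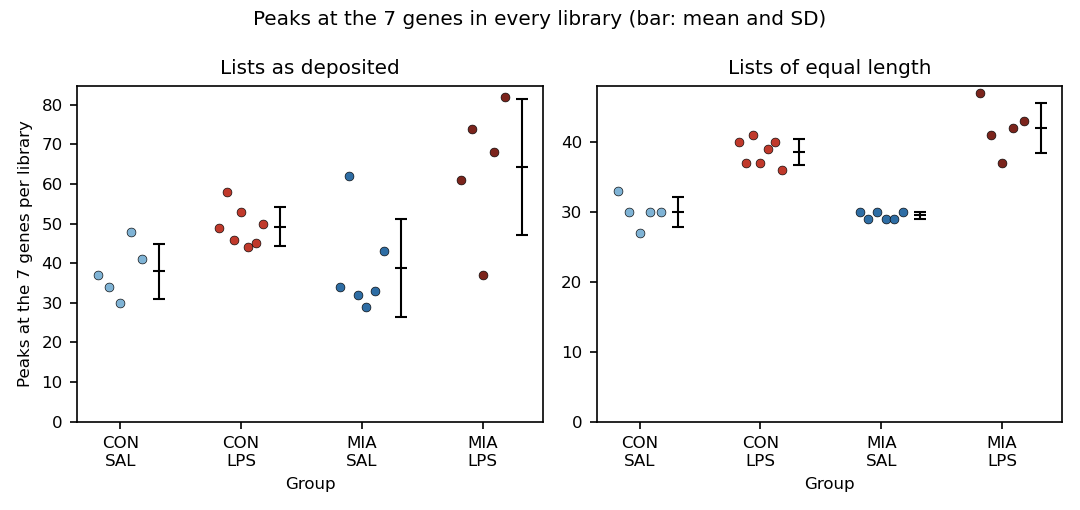
Peaks at the 7 genes in each library (vertical axis) by group, in the lists as deposited (left) and shortened to equal length (right); points are libraries, bars the mean and SD. In the lists of equal length the saline libraries lie at 27 to 33 and the LPS libraries at 36 to 47.

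Of the 53 regions, 31 lay inside a member's body and 22 outside. Of those outside, 6 had the end of another gene nearer than that of the member. By gene there were 7 regions at Cd80, 16 at Cd86, 3 at Cd40, 4 at Cd274, 7 at Pdcd1lg2, 5 at Icosl and 11 at Havcr2. Of all 53, 16 had a peak in all 23 libraries, beside 16596 of the 49124 regions of the genome. Exons and introns were not analysed here, since the gene table gives only gene starts and ends. Under the distance rule the farthest region kept lay 18011 bp from its gene (Havcr2_1, with Med7 as the nearest gene end, open in all 23 libraries), and the nearest region left out lay 20775 bp from Cd40 (nearest end Ncoa5, also open in all 23).

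LPS was compared with saline by the number of libraries with a peak, using an exact conditional test stratified by offspring group (two-sided, adjusted by Benjamini-Hochberg over all 17547 regions of the genome whose counts allowed a p of 0.01 or less, called at an adjusted p under 0.05). Of the 53 regions 19 could be tested, and 8 had a peak in more LPS than saline libraries: 4 at Cd86, 2 at Havcr2, and 1 each at Cd80 and Pdcd1lg2. Among all tested regions of the genome 15.3% passed in that direction. None of the 19 passed in the other direction, against 8.39% genome-wide, and 12 of the 19 had an unadjusted p under 0.05. The median difference of the 19, LPS minus saline, was 46.7 percentage points of libraries, beside −1.19 over all regions tested. The 34 untested regions include the 16 that were open in every library, so the 19 are the regions that vary most and not a sample of all 53.

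Some libraries stood apart. The identity codes in the labels carry a number whose meaning is not stated. Some libraries of the same group shared a number: CON_SAL 4 and 5, CON_LPS 1 and 6, MIA_SAL 1 and 5, and MIA_SAL 3 and 4. Numbers were also shared between treatments in CON offspring: CON_SAL 1 with CON_LPS 4, and CON_SAL 3 with CON_LPS 3. In MIA offspring these were MIA_SAL 2 with MIA_LPS 2, MIA_SAL 6 with MIA_LPS 5, and MIA_SAL 3 and 4 with MIA_LPS 3. No number occurred in both CON and MIA offspring. Whether such libraries are independent, for example from separate litters, is not known. The numbers 1 to 3 belonged to 6 libraries: CON_SAL 3, CON_LPS 3 and 7, MIA_SAL 3 and 4, and MIA_LPS 3. Over all regions their ranks correlated with other libraries of their own group at a median r of 0.816 to 0.845, against 0.831 to 0.871 for the other 17 libraries, and within each group they were the lowest. Without them 7 of the 8 gained regions kept their call by presence and Havcr2_11 could not be tested. The calls by rank, described next, were then 11 instead of 14 in the direction of LPS, 1 of them new, and the adjusted p by limma was above the threshold at Havcr2_11 (0.134), Cd86_3 (0.151), Pdcd1lg2_1 (0.0520) and Pdcd1lg2_3 (0.0762).

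**Figure D2:**
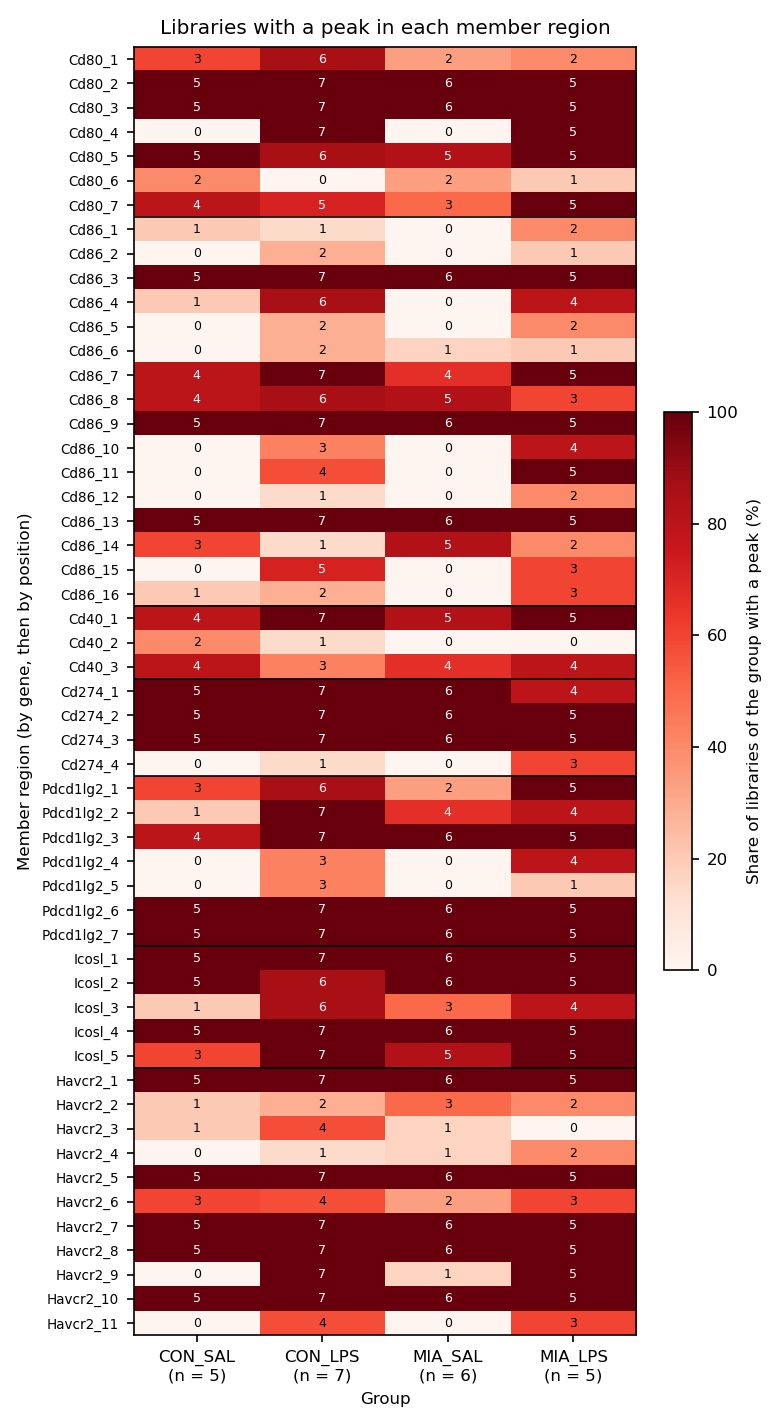
Number of libraries with a peak (printed) and their share in percent (shade) for each of the 53 regions (rows, by gene) in the 4 groups (columns). Cd80_4 and Havcr2_9 go from 0 of 5 and 0 or 1 of 6 saline libraries to 7 of 7 and 5 of 5 LPS libraries, while 16 rows are full in every group.

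A second measure was the percentile rank of a region within its list by −log10 p, where 100 is the strongest peak of the list and 0 means no peak. It was compared with limma over all 49124 regions. By this rank 14 of the 53 regions were higher after LPS (10.5% genome-wide) and 1 was lower (9.47%), and 17 had an unadjusted p under 0.05. Without the library MIA_LPS 1 the count of higher regions was 9, and the share over all regions in that fit is not reported here. With the rank taken from the authors' fold over background instead, 10 were higher (8.97%) and 1 lower (7%). All 8 regions found by presence were among the 14. The ranks hold many zeros, so for a region without a peak in saline the difference in rank restates the difference in presence.

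**Figure D3:**
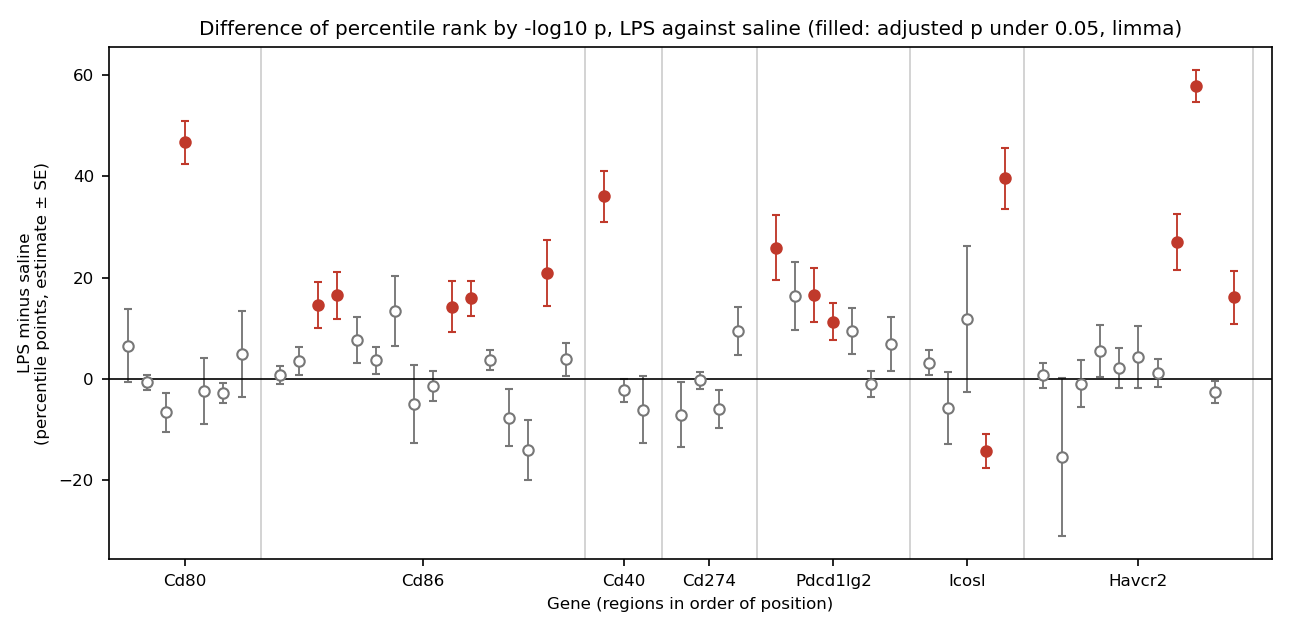
Difference in percentile rank by −log10 p, LPS minus saline (vertical axis, limma estimate ± SE), for the 53 regions in order of position within each gene. Filled points passed an adjusted p of 0.05: 14 lie above 0 and Icosl_4 lies below.

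CD80 is the higher-affinity partner of CTLA-4 and, with CD86, the main ligand of CD28. Among the 8 regions gained by presence, the one at Cd80 lay at the RefSeq start of its gene. Cd80_4 (chr16:38458668-38459168, summit 15 bp upstream of the RefSeq start and inside the gene model, whose lower end lies farther out) had a peak in 0 of 5 CON_SAL, 7 of 7 CON_LPS, 0 of 6 MIA_SAL and 5 of 5 MIA_LPS libraries. The difference of 100 percentage points had an adjusted p of 0.000175 by the exact conditional test. Fisher's exact test gave adjusted p = 0.0101 within CON and 0.0140 within MIA offspring.

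In the 7 CON_LPS libraries the percentile rank of Cd80_4 ran from 32.2 through a median of 53.8 to 64.7. In the 5 MIA_LPS libraries it was 49.2, 43.3, 56.3, 10.4 and 46.8. The saline and LPS libraries did not overlap, and the library MIA_LPS 4 lay below the other LPS libraries. The fold over local background, the authors' value for each peak, was 4.31 to 8.02 in the 12 LPS libraries with a median of 5.81. With no shortening of the lists Cd80_4 was still open in 0 of 11 saline and 12 of 12 LPS libraries. The difference in rank was 46.7 ± 4.27 points (estimate ± SE, limma adjusted p = 4.6e-08). With lists of only 16974 peaks each the presence difference was 38.6 points and the call was lost (exact conditional test, adjusted p = 0.110).

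The other Cd80 regions did not pass the LPS tests. Cd80_3 (chr16:38457026-38457526), 1657 bp upstream of the RefSeq start and 154 bp outside the lower end of the gene model, had a peak in all 23 libraries, with percentiles of 57.3 to 75.5 after saline and 34.2 to 86.5 after LPS. Cd80_2, the Cd80 region of the highest mean rank, was open in all libraries as well, but its nearest gene end was that of Adprh at 42 bp, and its difference in rank was −0.69 ± 1.5 points. At Cd80, then, a region open in every library and a region open only after LPS lay on either side of the lower gene end. Since Cd80 lies on the + strand, this end is the outer start of its gene model. Cd80_1, Cd80_5, Cd80_6 and Cd80_7 had peaks in 5 to 21 of the 23 libraries.

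**Figure D4:**
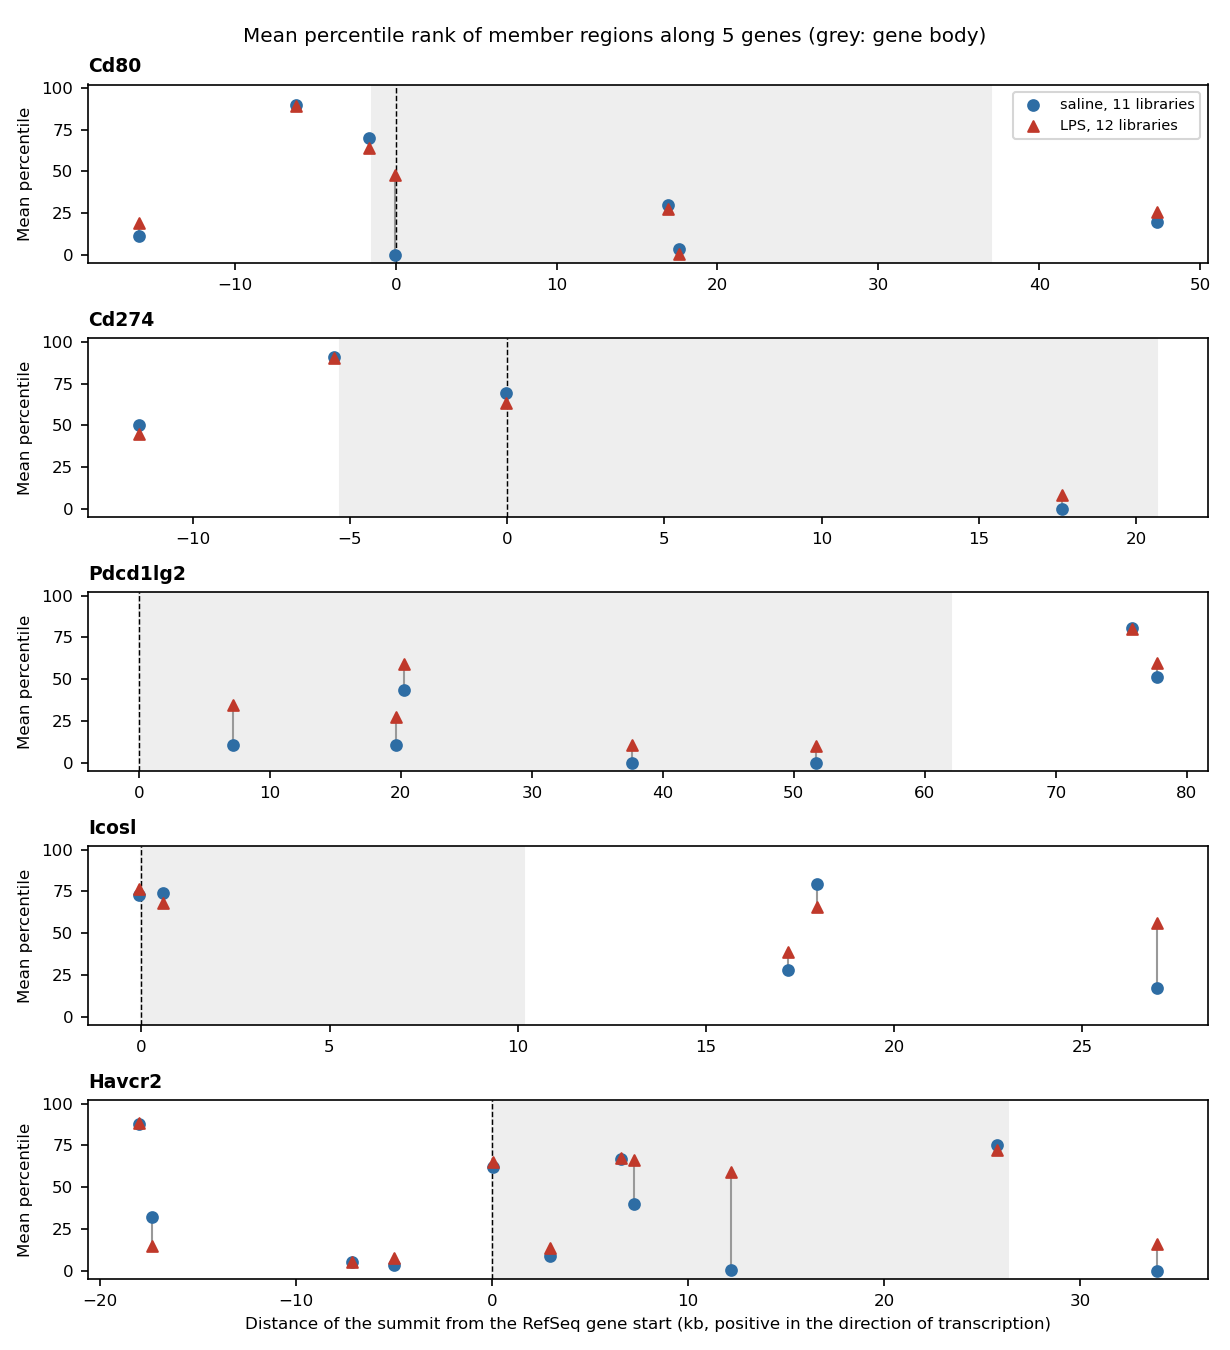
Mean percentile rank by −log10 p (vertical axis) in saline (circles, 11 libraries) and LPS (triangles, 12 libraries) against distance of the summit from the RefSeq start in kb, for the 5 genes with a RefSeq start; the gene body is grey. At the RefSeq start the pair of points is far apart for Cd80 and close together for Cd274, Icosl and Havcr2, and Havcr2 has its widest gap inside the gene.

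The regions most like Cd80_4 were sought over the whole genome. Outside the 7 genes, 252 regions had a peak in exactly the same 12 libraries. Among these the 5 with the highest correlation of rank with Cd80_4 over the 23 libraries had Samsn1, Trpc4, Metap1d, Tet2 and Smim20 as the gene with the nearest end (Pearson r 0.956 to 0.941). These correlations describe shared zeros in the 11 saline libraries as much as shared ranks in the others.

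CD86 is the CD28 ligand that myeloid cells carry most constantly. Its gene had 16 regions, the most of the 7 genes, and 3 of them were open in all 23 libraries. Cd86_13 (chr16:36665777-36666277) lay inside the gene 131 bp from its upper end, Cd86_9 (chr16:36642626-36643126) had the highest mean rank among the 3, and Cd86_3 (chr16:36626725-36627225) was the third. The gained regions lay at other places along the gene, 4 of them by presence.

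Cd86_11 (chr16:36655930-36656430), inside the gene 9978 bp from its upper end, had a peak in 0 of 11 saline libraries, in 4 of 7 CON_LPS and in 5 of 5 MIA_LPS libraries (78.6 points, adjusted p = 0.00380, exact conditional test). Within MIA offspring Fisher's exact test gave adjusted p = 0.0140. Its percentiles were low, 10.5 to 34.7 in the 9 libraries with a peak. The groups overlapped, since 3 CON_LPS libraries had no peak there.

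Cd86_4 (chr16:36631557-36632057) had a peak in 1 saline library, CON_SAL 5, and in 10 of 12 LPS libraries (72.9 points, adjusted p = 0.00807, exact conditional test). Cd86_10 (chr16:36645617-36646117) had a peak in 0 of 11 saline, 3 of 7 CON_LPS and 4 of 5 MIA_LPS libraries (61.4 points, adjusted p = 0.0252, exact conditional test). Cd86_15 (chr16:36673104-36673604), 7196 bp beyond the upper end of the gene, had a peak in 0 of 11 saline, 5 of 7 CON_LPS and 3 of 5 MIA_LPS libraries (65.7 points, adjusted p = 0.0131, exact conditional test). Their highest percentiles in any library were 38.1, 48.2 and 57.7. By rank, Cd86_15 lost its call without MIA_LPS 1 and without MIA_LPS 2 (limma adjusted p = 0.0558 and 0.0559), and Cd86_10 lost it in 17 of the 23 fits that left out 1 library. By presence Cd86_15 lost its call in the lists as deposited, where it was open in 2 of 11 saline and 9 of 12 LPS libraries (adjusted p = 0.0844, exact conditional test), and with −log10 q at 5 or more (34.8 points, adjusted p = 0.548). In the lists as deposited Cd86_4 was open in 5 of 11 saline and 11 of 12 LPS libraries, and its adjusted p was 0.141.

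The number of sorted cells, which the labels give for each library and which ran from 10560 to 25000, moved with some of these peaks. Among LPS libraries, Cd86_10 had a peak in 6 of the 6 made from 20000 or more cells and in 1 of the 6 made from fewer. Cd86_11 was open in 6 of 6 and 3 of 6, and Pdcd1lg2_4, described below, in 5 of 6 and 2 of 6. Cd80_4 and Havcr2_9 had a peak in 6 of 6 LPS libraries of either kind. Of the saline libraries 4 were made from 20000 or more cells, and none of these had a peak in Cd86_10, Cd86_11, Pdcd1lg2_4, Cd80_4 or Havcr2_9. By rank, limma called 5 regions higher after LPS within the 13 libraries of fewer than 20000 cells and 6 within the other 10, where each fit had fewer libraries. In the latter the difference at Havcr2_8, a region described below, was 15.5 points, and its adjusted p by limma was 0.372. The 6 libraries with identity numbers 1 to 3 were all made from 10560 to 12617 cells. Of the 3 LPS libraries among them, 0 had a peak in Cd86_10, 0 in Pdcd1lg2_4 and 1 in Cd86_11. Cell number and identity number thus overlapped in this split. The part of cell number in the results was not otherwise tested.

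Cd86_3 rose in rank though it was open in all libraries. It lay at percentiles 27.5 to 64.7 after saline (median 58.4) and 45.4 to 81.6 after LPS (median 67.8), ranges that overlapped. The difference was 14.6 ± 4.59 points (limma adjusted p = 0.0270), and by the rank of fold it was 9.64 points with adjusted p = 0.319. Its limma adjusted p by −log10 p was 0.0582, 0.0549 and 0.0518 without CON_SAL 1, CON_SAL 3 and MIA_LPS 1. Cd86_13 and Cd86_9 differed by −7.69 and −1.38 points, both short of the threshold. The other Cd86 regions had peaks in 3 to 20 libraries. Among these Cd86_14, 3645 bp beyond the upper end, was open in 8 of 11 saline and 3 of 12 LPS libraries, with adjusted p = 0.130 by the exact conditional test.

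CD40 is the receptor through which helper T cells activate a presenting cell. The region Cd40_1 (chr2:165055333-165055833), 31 bp outside the lower end of Cd40, was open in 9 of 11 saline and 12 of 12 LPS libraries. Its percentile rank was 11.7, 30.0, 0, 30.2 and 4.52 in the 5 CON_SAL libraries. In CON_LPS it ran from 26.7 through a median of 43.8 to 60.0, in MIA_SAL from 0 through 21.0 to 44.5, and in MIA_LPS from 55.4 through 61.6 to 77.4.

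Saline and LPS libraries overlapped at Cd40_1, with 3 saline libraries at or above the lowest LPS library; within MIA offspring they did not overlap. The difference was 36.1 ± 5.00 points (limma adjusted p = 1.6e-05), and limma gave 28.4 points within CON (adjusted p = 0.00967) and 43.7 points within MIA offspring (adjusted p = 0.000259). The difference between these responses, 15.3 ± 10.0 points, had an adjusted p of 0.988 by limma. The difference between LPS and saline at Cd40_1 kept its call under all 10 other settings and all 23 fits that each left out 1 library. The other regions of Cd40 had peaks in 3 libraries (Cd40_2) and 15 libraries (Cd40_3, 3500 bp beyond the upper end), and neither passed a test.

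**Figure D5:**
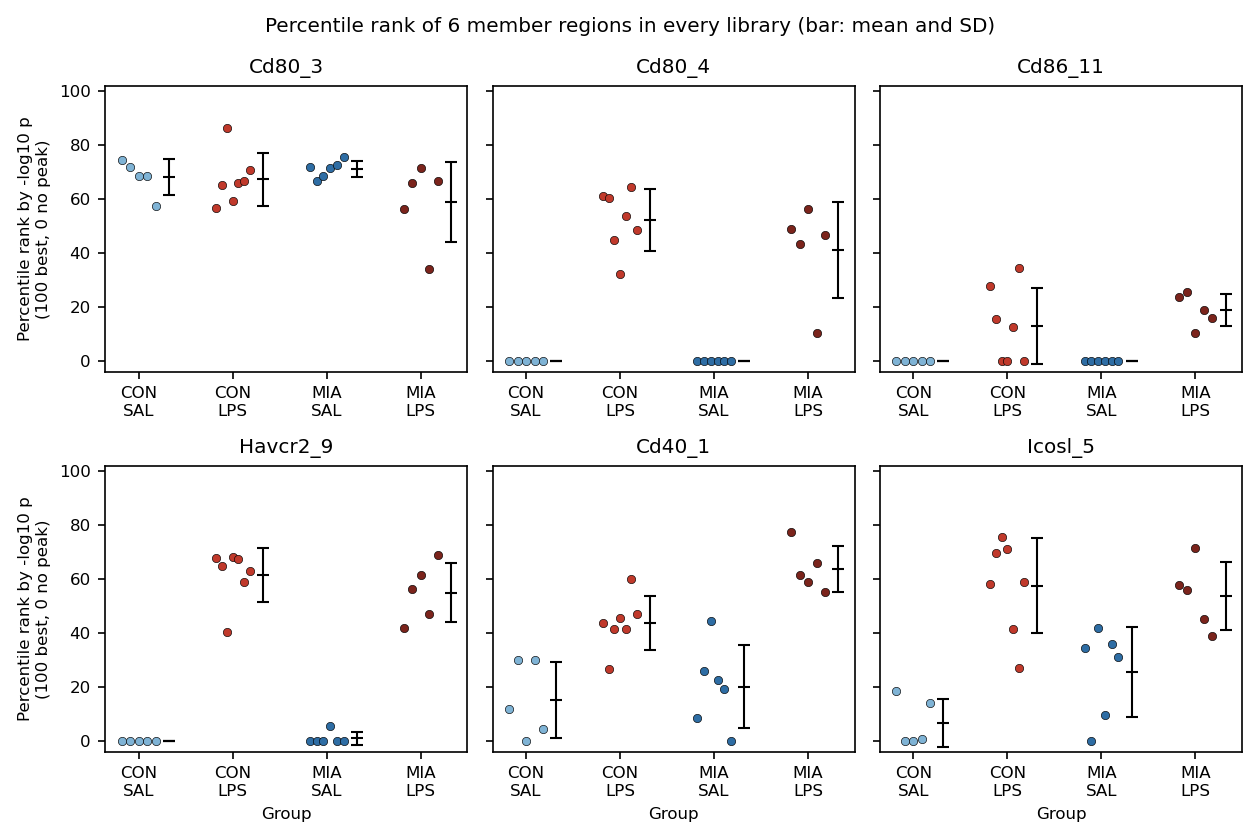
Percentile rank by −log10 p in each library (vertical axis, 100 the strongest peak and 0 no peak) for 6 regions in the 4 groups; points are libraries, bars the mean and SD. Cd80_3 is high in every group, Cd80_4, Cd86_11 and Havcr2_9 are at 0 in all or all but 1 of the saline libraries, and Cd40_1 and Icosl_5 are present after saline and higher after LPS.

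PD-L1, encoded by Cd274, and PD-L2, encoded by Pdcd1lg2, are the ligands of the inhibitory receptor PD-1, and their genes are neighbours on chromosome 19. No region of Cd274 passed an LPS test. Cd274_3 (chr19:29367134-29367634), with its summit 54 bp upstream of the RefSeq start, had a peak in all 23 libraries, at percentiles of 53.4 to 75.4 after saline and 41.7 to 80.8 after LPS. The difference was −5.99 ± 3.75 points (limma adjusted p = 0.286). The nearest gene end was that of Plgrkt at 92 bp.

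Cd274_2 (chr19:29361695-29362195), inside Plgrkt and 162 bp outside the lower end of the Cd274 gene model, was the strongest Cd274 region, at percentiles of 80.5 to 96.2 over all 23 libraries, and differed by −0.29 ± 1.63 points. Both places were thus open with and without LPS. Cd274_4, inside the gene 3010 bp from its upper end, was open in 0 of 11 saline and 4 of 12 LPS libraries, 3 of them MIA_LPS, and could not be tested by presence at the filter used.

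Pdcd1lg2 had 7 regions and none at its start, and the changes lay inside the gene. Pdcd1lg2_4 (chr19:29448331-29448831), 37662 bp downstream of the RefSeq start, had a peak in 0 of 11 saline, 3 of 7 CON_LPS and 4 of 5 MIA_LPS libraries (61.4 points, adjusted p = 0.0252, exact conditional test). Its percentiles were 3.63 to 27.7 in the 7 libraries with a peak. Without the filter on the attainable p, adjusted p was 0.0705 here, and for Cd86_10, by the same exact conditional test.

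Pdcd1lg2_1 (chr19:29417876-29418376), 7207 bp downstream of the start, had percentiles of 0 to 35.8 after saline, where 6 of 11 libraries had no peak, and of 0 to 64.5 after LPS, where 1 of 12 had none. The difference was 25.9 ± 6.45 points (limma adjusted p = 0.00598). It was 4.68 points with lists of 16974 peaks (limma adjusted p = 0.204) and 16.7 points in libraries made from fewer than 20000 cells (0.450), and by rank of fold the call was lost in 13 of the 23 fits that left out 1 library. Pdcd1lg2_3 (chr19:29430898-29431398) rose by 16.6 ± 5.36 points (limma adjusted p = 0.0319), from a median percentile of 45.6 to 58.3 with overlapping ranges. By the rank of fold its adjusted p was 0.132, and by −log10 p it was 0.0502, 0.0557, 0.0575 and 0.0635 without MIA_SAL 3, MIA_SAL 6, MIA_LPS 2 and MIA_LPS 5. In CON_LPS 1 and CON_LPS 2, 1 wide peak covered both Pdcd1lg2_3 and its neighbour Pdcd1lg2_2. By rank, Pdcd1lg2_4 had a limma adjusted p of 0.0684 without MIA_LPS 1 and 0.0676 without MIA_LPS 2. Pdcd1lg2_6 (chr19:29486467-29486967), 13790 bp beyond the upper end and open in all 23 libraries, had the highest mean rank of the gene and differed by −1.01 ± 2.55 points.

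ICOS ligand sustains activated T cells through ICOS. Icosl_1 (chr10:78069050-78069550), 68 bp upstream of the RefSeq start, had a peak in all 23 libraries at percentiles of 58.5 to 77.4 after saline and 68.8 to 85.9 after LPS, and its difference of 3.23 ± 2.50 points did not pass (limma adjusted p = 0.398). Regions beyond the gene moved in both directions. Icosl_5 (chr10:78096104-78096604), 16829 bp beyond the upper end, was found open in 8 of 11 saline and 12 of 12 LPS libraries.

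The percentiles of Icosl_5 were 18.7, 0, 0, 0.675 and 13.9 in CON_SAL and 57.8, 56.1, 71.6, 45.3 and 38.7 in MIA_LPS. They ran from 27.0 through 58.8 to 75.7 in CON_LPS and from 0 through 32.8 to 41.9 in MIA_SAL. The CON groups did not overlap and the MIA groups did. The difference was 39.6 ± 6.05 points (limma adjusted p = 5.0e-05). Icosl_4 (chr10:78087061-78087561), 7786 bp beyond the gene, was the single region that fell: from percentiles of 73.9 to 91.4 after saline (median 79.0) to 48.7 to 79.0 after LPS (median 66.6). It differed by −14.3 ± 3.43 points (limma adjusted p = 0.00460), with a peak in all 23 libraries, so it weakened in rank without being lost. With only the libraries of fewer than 20000 sorted cells its difference was −8.59 points and the adjusted p by limma 0.158. Limma gave −11.8 points within CON (adjusted p = 0.130) and −16.7 points within MIA offspring (adjusted p = 0.0326). In some libraries of every group, CON_SAL 5 and MIA_LPS 5 among them, 1 wide peak covered both Icosl_4 and its neighbour Icosl_3.

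TIM-3, encoded by Havcr2, had the largest change in rank of the 53 regions. Havcr2_9 (chr11:46466860-46467360), inside the gene 12179 bp downstream of the RefSeq start, had a peak in 0 of 5 CON_SAL, 7 of 7 CON_LPS, 1 of 6 MIA_SAL and 5 of 5 MIA_LPS libraries (91.7 points, adjusted p = 0.000537, exact conditional test). Fisher's exact test gave adjusted p = 0.0101 within CON offspring and 0.0541 within MIA offspring, where MIA_SAL 4 had a peak. The LPS response in rank differed by −7.48 ± 6.35 points between MIA and CON offspring by limma (adjusted p = 0.988).

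The percentile of Havcr2_9 ran from 40.5 through 64.7 to 68.2 in CON_LPS and was 41.7, 56.2, 61.4, 46.9 and 68.9 in MIA_LPS. The single saline peak lay at 5.61, so that saline and LPS libraries did not overlap. The fold over background was 4.65 to 13.6 after LPS (median 7.91) and 3.66 in the saline library. The difference in rank was 57.8 ± 3.17 points (limma adjusted p = 1.5e-11). In the lists as deposited 3 of 11 saline libraries had a peak there.

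The start of Havcr2 did not change with it. Havcr2_5 (chr11:46454710-46455210), with its summit 29 bp downstream of the start, was open in all 23 libraries at percentiles of 34.5 to 73.3 after saline and 51.3 to 81.3 after LPS (difference 2.21 ± 3.99 points, limma adjusted p = 0.754). Havcr2_8 (chr11:46461916-46462416), 7235 bp downstream of the start, was open in all libraries too and rose from a median percentile of 36.4 to 69.8, by 27.1 ± 5.53 points (limma adjusted p = 0.00111). The ranges overlapped widely: 9 of 11 saline libraries lay at or above the lowest LPS library, CON_LPS 5 at 28.0, and 8 of 12 LPS libraries lay at or below the highest saline library, CON_SAL 5 at 71.9. In CON_SAL 5 and MIA_LPS 5, 1 wide peak covered both Havcr2_8 and its neighbour Havcr2_7, which differed by 1.15 ± 2.76 points.

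Havcr2_11 (chr11:46488588-46489088), 7583 bp beyond the upper end, had a peak in 0 of 11 saline, 4 of 7 CON_LPS and 3 of 5 MIA_LPS libraries (58.6 points, adjusted p = 0.0270, exact conditional test). Its adjusted p ran from 0.0230 to 0.0529 when single libraries were left out, and missed the threshold without MIA_LPS 1, MIA_LPS 3 or MIA_LPS 4. It also missed it with −log10 q at 5 or more (0.0714), with lists shortened by fold (0.0668) and when regions of any attainable p were tested (0.0756), and in the lists as deposited 3 of 11 saline and 11 of 12 LPS libraries had a peak there. Havcr2_1, open in all libraries and the region of highest mean rank at Havcr2, lay 16 bp from the end of Med7 and differed by 0.68 ± 2.40 points. Havcr2_10, inside the gene 579 bp from its upper end, differed by −2.64 ± 2.17 points and was also open in all 23.

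Read over the 7 genes, the 10 regions within 1 kb of a gene end or RefSeq start included 7 open in every library and 1 gained by presence, Cd80_4. The 25 regions deeper inside the genes included 4 open in every library and 5 gained, and the 18 regions farther outside 5 and 2. A region open in every library could not be gained, only 19 of the 53 regions could be tested, and the places were not compared by a test. The share of gained regions at such places was not computed over the genome, so these counts do not show where gains gather. Each LPS library carried between 4 and 8 of the 8 gained regions (CON_LPS 4 to 7, median 5; MIA_LPS 5 to 8, median 7), and each saline library 0 or 1. These last counts describe regions that the same libraries had chosen and are not a test.

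LPS within each kind of offspring was tested with fewer libraries. In CON offspring 8 of the 53 regions could be tested by Fisher's exact test and 2 were gained, Cd80_4 and Havcr2_9 (9.92% genome-wide). In MIA offspring 5 could be tested and 2 were gained, Cd80_4 and Cd86_11 (13% genome-wide); without the library MIA_LPS 3 there were 4. A call in 1 kind of offspring and not in the other does not show a difference between them. That difference was tested by rank with limma, and none of the 53 regions passed, with 2 at an unadjusted p under 0.05 (0.00204% of all regions passed). These were Pdcd1lg2_1, where the LPS response was 29.9 ± 12.9 points larger in MIA offspring, and its neighbour Pdcd1lg2_2, where it was 28.2 points smaller.

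MIA and CON offspring were not told apart at these genes. By presence over both treatments 15 regions could be tested, 0 passed and 0 had an unadjusted p under 0.05 by the exact conditional test, the smallest being 0.110 (0% of 15264 regions passed genome-wide). After saline alone 4 regions and after LPS alone 6 regions could be tested by Fisher's exact test, again with 0 passing and 0 under 0.05 before adjustment. By rank with limma 0 passed and 3 had an unadjusted p under 0.05 (0.00204% genome-wide): Cd40_1 with 12.5 points more in MIA, Cd86_3 with 11.3 points more and Cd274_1 with 16.1 points less. The standard errors of these differences were 5.00, 4.59 and 6.44 points, and misses of the threshold do not show that the offspring groups are alike.

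Other genes of the same pathways were read with the same 20 kb rule and the same test of presence. Of the other B7 family ligands, 15 regions could be tested and 2 were gained after LPS (13.3%, near the 15.3% of all tested regions), at Vsir (0 of 11 saline, 9 of 12 LPS, inside both Vsir and Cdh23), which encodes the inhibitory ligand VISTA, and at Btnl2. None of the 15 were lost, against 8.39% of all tested regions. Among other costimulatory ligands and adhesion partners, for which 11 of 12 symbols matched and Cd58 did not, 5 of 23 tested regions were gained (21.7%, against 15.3% of all) and 1 was lost (4.35%, against 8.39%). The largest difference was at Tnfsf18, the GITR ligand, where a region 12245 bp outside the gene went from 0 of 11 saline to 12 of 12 LPS libraries (adjusted p = 0.000175, exact conditional test) and a region inside it in 0 of 11 and 10 of 12. Near Icam1, the adhesion partner of LFA-1, a region closer to Mrpl4 was open in 2 of 11 and 11 of 12.

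In CD40 signalling 4 of 18 tested regions were gained (22.2%, against 15.3% of all) and 2 lost (11.1%, against 8.39%). Traf1 had a peak 2947 bp outside the gene in 0 of 11 saline and 11 of 12 LPS libraries, Traf3 inside the gene in 1 and 12, and Traf2 in 2 and 11. A region inside Traf5 went the other way, with 10 of 11 saline and 2 of 12 LPS libraries (adjusted p = 0.00787, exact conditional test). These genes encode the adaptor proteins that bind the tail of CD40 and related receptors.

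Of the regulators known to induce the members, 12 of 38 tested regions were gained (31.6%, against 15.3% of all) and 0 lost (8.39% of all), at 8 of the 12 genes. All the pathway lists were chosen with earlier results of these data known and were not tested against other genes. At Irf8, a myeloid lineage factor, 2 of the 3 gained regions each were open in 1 of 11 saline and 12 of 12 LPS libraries (adjusted p = 0.000537, exact conditional test). At Nfkb1, which encodes the p50 subunit of NF-kB, a region inside the gene was open in 0 of 11 and 10 of 12. At Ifngr2, a chain of the interferon gamma receptor, a region was open in 1 of 11 and 9 of 12, and near Stat3 in 1 of 11 and 11 of 12, though the end of Cavin1 was closer. None of 9 tested regions at the receptors on T cells and none of 2 at the ligands of TIM-3 passed. The median difference ran from −23.6 points for the receptors on T cells to 22.1 for CD40 signalling, beside −1.19 for all regions tested.

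Markers of cell types were checked by regions within 1 kb of a gene end. Among microglial genes Tmem119, Cx3cr1, Sall1 and Siglech had such a region open in all 23 libraries, Csf1r in 21 and Gpr34 in 0. P2ry12, a marker of the sort, had one in 8 of 11 saline and 4 of 12 LPS libraries. Of 7 monocyte and neutrophil genes 6, Ly6g, Ly6c2, Ccr2, Retnlg, Csf3r and S100a9, had none in any library, while S100a8 had one in 0 of 11 saline and in 10 of the LPS libraries. Of 6 border macrophage genes 4 had none and Siglec1 had one in 1 saline and 7 LPS libraries. Among B cell genes Ms4a1 had none, and Cd79a had one in 1 saline and 7 LPS libraries. Of 6 T cell genes Cd3e, Cd3g and Cd8a had none, whereas Cd3d had one in 21 libraries, Cd4 in 15 and Lck in 2. Of 6 dendritic cell genes Xcr1 had one in all 23 libraries, Flt3 in 21, Clec9a in 14 and Zbtb46 in none. Other brain cell types were not uniformly closed either: Mbp of oligodendrocytes and Kdr of endothelium had a region in all 23 libraries and Slc1a3 of astrocytes in 22. Mog of oligodendrocytes moved with treatment, with 6 of 11 saline and 1 of 12 LPS libraries, while Aqp4, Gfap, Olig2 and Cldn5 had none. The part of other cell types in the results at the 7 genes was not tested.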

How the data were processed

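ATAC-seq peak lists of 23 libraries were used as deposited. The submitters' processing notes name MACS2, Bowtie2, DiffBind, SAMtools, Picard and cutadapt, and the builds mm10 and GRCm38; no version or setting of these was available to this work. In each list the authors give the fold over local background at the summit (a ratio), a −log10 p and a −log10 q for every peak, and the summit's distance from the peak start. The integer score that the authors deposited was not used. There is 1 list per library, and fold and −log10 p only described and ranked peaks within a list.

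The members, gene lists and motifs were chosen with earlier results of these data known. Lists were shortened to 33949 peaks, and 501 bp windows centred on summits, strongest first and without overlap, gave 74287 windows, of which 49124 with a peak in at least 3 libraries were kept. A library had a peak in a window when a peak covered 50% of it or had 50% of its own length inside. Presence was tested with exact conditional and Fisher's exact tests where the counts allowed a p of 0.01 or less, and ranks with limma (3.58.1 in R 4.3.3) on the 4 group means, both adjusted by Benjamini-Hochberg over all regions tested. Other steps used Python 3.11.15 with scipy 1.17.1. The tests were checked on simulated data. All 7 members were named, with full values for regions that passed a test or were the most widely open of their gene; from the pathway lists, at most 12 genes with a called region were to be given with values. Genes came from RefSeq (GRCm38.p6) by symbol. No pair of lists shared over 0.309% of identical peaks. Because lists of equal length fix the number of peaks, a gain in some regions displaces weak peaks elsewhere. Values of some genes on the pathway and marker lists are not reported here.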

Additional observations from a re-analysis of the deposited data

Results flagged for a closer look

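The number of peaks at the 7 genes and the percentile ranks of the 16 regions open in every library were checked in each of the 4 groups, 68 checks in all. In 8 of them the highest or lowest library lay farther from its nearest neighbour, relative to the range of the group, than is usual for a group of its size; chance gives about 1 in 20. At Icosl_1, the region at the Icosl start, CON_SAL 3 lay at 63.1, below its group, and MIA_LPS 2 at 73.0, below a group whose other libraries lay close together. At Havcr2_8 the percentile of CON_LPS 5 was 28.0, below its group. At Icosl_4 that of MIA_SAL 5 was 91.4, above its group. At Cd86_3 and Cd86_9 the library MIA_SAL 6 was lowest of its group, with 43.4 and 59.9. At Cd86_13 the percentile of MIA_SAL 4 was 73.0 and at Cd86_9 that of MIA_LPS 3 was 81.9, both above their groups. Of these libraries CON_SAL 3, MIA_SAL 4 and MIA_LPS 3 carry identity numbers from 1 to 3.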

How the results depend on the processing

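No region of the 7 genes with a call changed direction under the alternatives run; regions of the pathway lists were not recomputed. By presence over both offspring groups, 8 gained regions became 5 with lists of 16974 peaks, 4 with −log10 q at 5 or more, 5 when the filter on the attainable p was dropped and 1 in the libraries made from under 20000 sorted cells. Over all regions of the genome, 4154 of 17547 tested were called in either direction in the main run. The calls were 2257 of 8782 with the shorter lists and 2481 of 21652 with the −log10 q limit. They were 2545 of 49124 without the filter and 450 of 7225 in the libraries of under 20000 cells. In CON offspring 2 became 1 with all deposited peaks, 0 with lists of 16974 peaks, 1 with the −log10 q limit and 0 without the filter, and in MIA offspring 2 became 1 with the −log10 q limit and 0 without the filter. Over all regions the CON calls were 656 of 5272 in the main run and 457 of 6326 with all deposited peaks. They were 367 of 2656, 401 of 5412 and 0 of 49124 in the other settings, in the same order. The MIA calls were 895 of 5795 in the main run, then 388 of 8074 and 0 of 49124. By rank of −log10 p, 14 higher regions became 5 with lists of 16974 peaks, 8 among regions with a peak in at least 12 libraries, 5 in libraries made from under 20000 cells (0 lower) and 6 in the others. By rank of fold, 10 became 6, 6, 5 (0 lower) and 6 (0 lower) under the same settings, and with the identity number as a random block 2 regions were lower. The cell number classes also hold fewer libraries, and otherwise the cause was not tested. Leaving out 1 library at a time gave 7 to 9 gained regions over both offspring groups, 2 to 3 in CON and 2 to 4 in MIA. It gave 9 to 15 higher and 1 to 2 lower by rank of −log10 p, and 8 to 10 higher and 1 to 3 lower by rank of fold. The count of lower regions was 2 without CON_SAL 2 or MIA_LPS 1 by −log10 p, and by fold 2 without CON_LPS 5 or MIA_SAL 5 and 3 without MIA_LPS 1. Counts by rank over all regions are not reported here for any of the alternatives. Whether the lower counts by rank were particular to the 7 genes therefore cannot be told.

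Replicate numbers gave no consistent pairing of the libraries. The correlation of deviations from group means over 31 pairs of the same number ran from −0.18 to 0.185. Its median was 0.0209, and 8 pairs were over 0.1. Of 23 libraries 7 correlated best with their own number, a count that was not compared with chance. Over 10 pairs of the same identity number the correlation ran from −0.102 to 0.156. With the replicate block 8 regions were gained by presence, and 13 were higher by rank of −log10 p. MIA against CON and the difference of the LPS response gave 0 calls under every alternative run. Tests of presence in libraries made from 20000 or more cells gave no value. With so few libraries the smallest p that the counts allowed lay at about 0.01, the limit of the filter. Depth is unknown, and a missing peak does not show closed chromatin.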
